A study of Mus musculus with 6 samples.

Results

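The cadherin and integrin genes of the mouse were examined for accessible chromatin in embryonic stem cells. Members were the protein-coding genes of the RefSeq table of GRCm38.p6 (mm10) whose symbols read Cdh followed by a number, or Itga or Itgb followed by digits or letters. This rule took 54 of 21883 protein-coding genes. They comprised 23 cadherins, 27 integrin subunits and 4 further genes whose symbols match but which encode no integrin subunit, namely Itgb1bp1, Itgb1bp2, Itgb3bp and Itgbl1.

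The assay was ATAC-seq: isolated nuclei are exposed to Tn5, a transposase that cuts and tags DNA where chromatin is open. All samples derived from the E14 line with an NSD1-dTAG knock-in, a tag through which the compound dTAG-13 directs the histone H3 lysine 36 methyltransferase NSD1 to degradation. The 6 samples, 1 per group, were stem cells in 2i/LIF medium (a MEK and a GSK3 inhibitor with leukemia inhibitory factor) on gelatin exposed to 500 nM dTAG-13 for 0, 1, 6 or 24 h, and day 6 embryoid bodies grown with 500 nM dTAG-13 or without it. Only the 0 h library, from untreated cells that carry the tag, was analysed here, and neither the effect of losing NSD1 nor the spread between libraries could be measured. The labels do not say whether the knock-in line is 1 clone.

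Cadherins are calcium-dependent adhesion receptors that bind partners of the same kind on the neighbouring cell and are anchored to actin inside the cell through catenins. Integrins are pairs of an alpha and a beta subunit that bind extracellular matrix or counter-receptors on other cells and are anchored through talin and kindlin. Mouse embryonic stem cells grow as compact colonies held together by E-cadherin, the product of Cdh1, and they attach to laminin and fibronectin through integrins that contain the beta 1 subunit.

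The library held 77629 peaks, and the median summit pileup, meaning how many reads or fragments overlap at a peak's summit, was 23 on the assembled chromosomes, with quartiles of 14 and 45. Where only the genome-wide background of 1.30 applied, the lowest listed pileup was 6, so sites of 5 or fewer were not detectable there. Of 6 stem cell markers, 5 had a gene-end peak, with pileups of 152 at Pou5f1, 134 at Zfp42, 119 at Sox2, 114 at Klf4 and 58 at Nanog, and Esrrb had 22 peaks inside the gene. Of 6 fibroblast and feeder markers, 4 had a gene-end peak, with pileups of 38, 22, 15 and 7, and Acta2 and Col3a1 had none. A peak was counted at a gene end if it overlapped the 1 kb on either side of either annotated end, in the body if it lay elsewhere within the gene, and in the flank if it lay within 50 kb outside. Where a pileup is followed by a range in parentheses, that is its 95% interval, computed exactly from the Poisson distribution, and it covers only counting error.

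Promoter sequences from RefSeq (GRCm38.p6), which run from 250 bases before to 50 bases after a transcription start, matched 35 of the 54 genes. The 6 below are shown because they span the CpG content and the accessibility found among the members. They are written 5′ to 3′ on the strand of the gene, and capitals mark CpG dinucleotides, the usual target of DNA methylation. Itgb1 (beta 1 integrin, chr8:128685404-128685703, + strand), Itgav (alpha v integrin, chr2:83724147-83724446, + strand) and Cdh24 (cadherin 24, chr14:54641315-54641614, - strand) are rich in CpG. Itga5 (alpha 5 integrin, chr15:103366742-103367041, - strand) is intermediate. Itgam (alpha M integrin, chr7:128062390-128062689, + strand) and Cdh26 (cadherin 26, chr2:178430265-178430564, + strand) are poor in CpG.
Itgb1: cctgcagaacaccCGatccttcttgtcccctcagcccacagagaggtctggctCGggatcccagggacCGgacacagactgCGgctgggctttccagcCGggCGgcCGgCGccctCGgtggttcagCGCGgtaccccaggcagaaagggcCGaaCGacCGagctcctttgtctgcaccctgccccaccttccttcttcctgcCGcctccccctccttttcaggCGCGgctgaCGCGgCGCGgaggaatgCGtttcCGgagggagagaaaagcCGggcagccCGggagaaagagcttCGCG
Itgav: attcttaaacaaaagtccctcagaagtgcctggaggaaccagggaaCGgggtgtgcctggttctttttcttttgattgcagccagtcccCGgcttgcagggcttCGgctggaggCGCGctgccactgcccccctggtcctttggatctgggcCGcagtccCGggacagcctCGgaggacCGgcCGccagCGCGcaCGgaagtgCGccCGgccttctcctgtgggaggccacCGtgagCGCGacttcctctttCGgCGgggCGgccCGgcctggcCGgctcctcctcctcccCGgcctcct
Cdh24: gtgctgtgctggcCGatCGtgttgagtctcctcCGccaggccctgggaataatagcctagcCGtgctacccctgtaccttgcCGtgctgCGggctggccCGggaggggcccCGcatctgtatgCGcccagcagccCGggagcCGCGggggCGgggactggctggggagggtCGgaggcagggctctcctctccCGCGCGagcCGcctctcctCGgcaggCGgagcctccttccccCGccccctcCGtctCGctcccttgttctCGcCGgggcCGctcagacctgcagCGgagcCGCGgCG
Itga5: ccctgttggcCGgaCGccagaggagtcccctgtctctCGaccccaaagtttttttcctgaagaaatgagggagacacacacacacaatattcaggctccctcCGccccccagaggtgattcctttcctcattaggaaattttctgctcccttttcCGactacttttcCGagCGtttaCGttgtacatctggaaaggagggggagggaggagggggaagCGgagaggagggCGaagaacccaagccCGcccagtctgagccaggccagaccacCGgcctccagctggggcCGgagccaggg
Itgam: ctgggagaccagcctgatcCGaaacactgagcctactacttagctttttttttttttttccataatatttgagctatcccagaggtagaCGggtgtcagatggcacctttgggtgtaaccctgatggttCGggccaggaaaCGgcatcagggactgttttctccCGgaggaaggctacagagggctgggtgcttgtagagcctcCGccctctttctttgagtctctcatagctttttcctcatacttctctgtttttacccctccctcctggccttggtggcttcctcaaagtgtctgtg
Cdh26: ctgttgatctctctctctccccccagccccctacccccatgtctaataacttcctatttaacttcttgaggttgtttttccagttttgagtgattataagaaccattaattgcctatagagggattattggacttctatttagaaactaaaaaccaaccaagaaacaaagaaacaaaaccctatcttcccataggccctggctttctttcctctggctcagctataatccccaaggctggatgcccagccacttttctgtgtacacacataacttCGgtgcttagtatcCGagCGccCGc

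The CpG counts of these promoters were 27 for Itgb1, 24 for Itgav, 30 for Cdh24, 13 for Itga5, 6 for Itgam and 4 for Cdh26. A peak lay within 1 kb of the start at the 4 promoters with 13 or more CpGs, with pileups of 109 at Itgb1, 86 at Itgav, 71 at Itga5 and 54 at Cdh24. Their summits lay 36 bases after the start of Itgb1, 7 after that of Itga5, 18 before that of Itgav and 64 before that of Cdh24. No peak was listed within 1 kb of the starts of Itgam and Cdh26.

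Across the members, the share of genes with an accessible end was near that of all protein-coding genes, which are shorter on the whole, and the median pileup there was lower. Of the 54 members, 34 (63.0%) had a peak at an end, against 66.5% of all protein-coding genes. With a pileup of at least 20 required, 29 members (53.7%) had one, against 60.4% of all protein-coding genes. Accessible ends were more frequent in longer genes over all protein-coding genes, at 57.4% under 20 kb and 74.8% to 81.1% in the longer classes. Under 20 kb, 2 of 2 cadherins and 1 of 3 integrin subunits had one. An accessible end was found at 2 of 3 cadherins and 5 of 10 integrin subunits of 20 to 50 kb, against 74.8% of all protein-coding genes of that length, and at 6 of 8 integrin subunits and 1 of 4 cadherins of 50 to 100 kb, against 79.5%. At 100 to 200 kb there were 5 of 6 cadherins and 4 of 5 integrin subunits, against 81.1%, and at 200 kb or more 5 of 8 cadherins and the 1 integrin subunit, against 78.1%. The median gene-end pileup, taking for each gene its tallest such peak, was 45 over the 34 members with a peak and 66 over the 14548 protein-coding genes with a peak. With genes without a peak entered as 0, the medians were 29 and 37. The members' gene-end pileups ranged from 10 to 109, and that range was from 6 to 938 over all protein-coding genes.

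**Figure D1:**
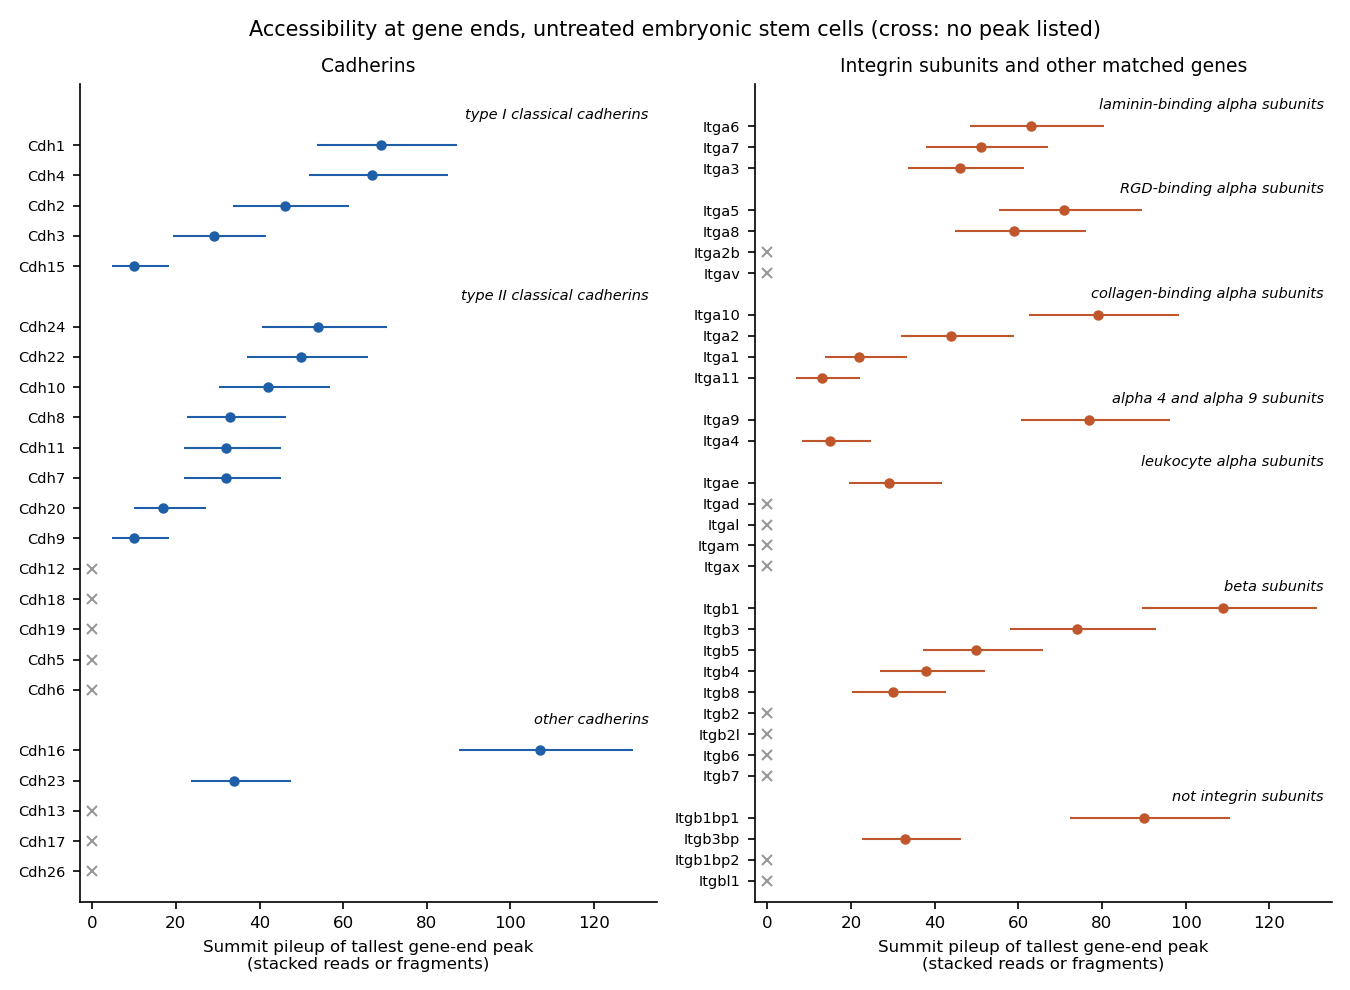
Summit pileup of the tallest gene-end peak of each of the 54 genes (horizontal axis, stacked reads or fragments), with cadherins on the left and integrin subunits and other matched genes on the right, grouped by role. Points are pileups, lines are exact Poisson 95% intervals, and crosses mark genes with no listed peak; Itgb1 (109) and Cdh16 (107) reached the highest values, and 4 of 5 leukocyte alpha subunits had none.

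All 5 type I classical cadherins, the founding group that includes E- and N-cadherin, had an accessible end. Cdh1, E-cadherin, had a gene-end pileup of 69 (53.7 to 87.3), at chr8:106603010-106604235, with its summit 5 bases inside the lower-coordinate end of the gene. Cdh4, retinal cadherin, had 67 (51.9 to 85.1), with its summit 11 bases inside its lower-coordinate end. These 2 values lie inside each other's intervals, so no difference between them was detectable at this depth. Cdh2, N-cadherin of neural and mesenchymal cells, had 46 (33.7 to 61.4) and a second peak of 33 at the same end. Its interval overlapped that of Cdh1. Cdh3, placental cadherin, had 29 (19.4 to 41.6) at one end and 15 at the other. Cdh15, muscle cadherin, had 10 (4.80 to 18.4), a peak that is lost at a pileup of at least 20 or a -log10 q of at least 5. The intervals of Cdh3 and Cdh15 lay wholly below that of Cdh1.

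Type II classical cadherins, many of which are known from the nervous system, had an accessible end in 8 of 13 cases, with a median pileup of 32.5 over those 8. Cdh24 was the highest with 54 (40.6 to 70.5), but that peak also overlapped the end window of Acin1, 733 bases from its summit, and counts for both genes. Cdh22 followed with 50 (37.1 to 65.9) at its lower-coordinate end and 43 at the upper one, where its start lies. Cdh10 had 42, Cdh8 had 33, Cdh7 and Cdh11 had 32 each, Cdh20 had 17 and Cdh9 had 10. Cdh11, osteoblast cadherin, had a second peak of 14 at the same upper-coordinate end. Cdh5, the cadherin of endothelial junctions, had no peak at its ends or in its body. Cdh6, Cdh12, Cdh18 and Cdh19 had none at their ends, but all 4 had peaks in the body.

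The start of Cdh6, a cadherin of the kidney and brain, lies 2.73 kb inside its annotated upper-coordinate end. A peak of 64 (49.3 to 81.7) at chr15:13173032-13173837 had its summit 75 bases after that start. It was counted as a body peak. The listed starts of Cdh12 and Cdh18 lie 663 kb and 488 kb inside their annotated genes, and no peak was listed within 1 kb of either. That of Cdh10 lies 1.46 kb inside, and its gene-end peak of 42 had its summit at -1677 bases relative to the start and 306 bases from an end of C030047K22Rik.

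Among the other cadherins, Cdh16, a cadherin of kidney tubules, had the highest gene-end pileup of all 23, 107 (87.7 to 129). Its summit lay 966 bases inside the lower-coordinate end. Cdh16 has no listed start, so whether this end is its start could not be told. Cdh23, a component of the tip links of inner ear hair cells, had 34 (23.5 to 47.5), with the summit at -653 bases relative to its start. Cdh13, T-cadherin, which lacks the cytoplasmic tail of the classical members, had no gene-end peak, nor had Cdh17, the cadherin of liver and intestine, and Cdh26. All 3 had body peaks.

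Of the integrin subunits, 17 of 27 (63.0%) had an accessible end, with a median pileup of 50 over those 17. Among the 9 beta subunits, Itgb1, the beta chain of most matrix-binding integrins, had the highest pileup of all members, 109 (89.5 to 131). Itgb3, which pairs with alpha v and with the platelet alpha IIb chain, had 74 (58.1 to 92.9) and the highest value of all members' gene-end peaks by the authors' fold enrichment over local background, 17.7. Itgb5, another partner of alpha v, had 50, Itgb4 of hemidesmosomes had 38, and Itgb8 had 30. Itgb2, Itgb2l, Itgb6 and Itgb7 had no gene-end peak. Itgb2 encodes the shared beta chain of leukocyte integrins, and Itgb7 is also a leukocyte chain.

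Every laminin-binding alpha subunit had an accessible end. Itga6, which pairs with beta 1 or beta 4, had 63 (48.4 to 80.6), Itga7 of muscle had 51 (38.0 to 67.1), and Itga3 had 46 (33.7 to 61.4). These 3 intervals overlapped. For Itga3 the table lists 2 starts, and the peak lay at the CpG-rich one, with no peak within 1 kb of the other.

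The RGD-binding alpha subunits, which recognise an Arg-Gly-Asp sequence in ligands such as fibronectin and vitronectin, had a gene-end peak in 2 of 4. Itga5, the fibronectin receptor, had 71 (55.5 to 89.6), and Itga8 had 59 (44.9 to 76.1). Itgav had none at its annotated ends. Its listed start lies 2.09 kb inside the annotated gene, however, and the peak of 86 (68.8 to 106) at that start, chr2:83723929-83725201, was counted in the body. Itga2b, the platelet subunit, had none at its ends but a body peak of 99 (80.5 to 121).

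All 4 collagen-binding alpha subunits had a gene-end peak, with pileups of 79 at Itga10, 44 at Itga2, 22 at Itga1 and 13 at Itga11. The 79 of Itga10 (62.5 to 98.5) stood at its upper-coordinate end, away from its start. Itga9, a tenascin receptor subunit, had 77 (60.8 to 96.2) and Itga4, known from lymphocyte homing, had 15 (8.40 to 24.7). The summit at Itga9 lay 1149 bases inside the lower-coordinate end, whereas its listed start lies 105 kb inside that end, with no peak within 1 kb of it.

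Leukocyte alpha subunits had the lowest share of any group, with a gene-end peak at 1 of 5. That member was Itgae, with 29 (19.4 to 41.6). Its product pairs with beta 7 and binds E-cadherin. Itgad, Itgal, Itgam and Itgax had none, and Itgad and Itgax had none in the body either. Of the genes matched by symbol that encode no integrin subunit, Itgb1bp1, a protein that binds the beta 1 tail, had 90 (72.4 to 111) at an end shared with Cpsf3. Itgb3bp had 33 at an end shared with Efcab7, and Itgb1bp2 and Itgbl1 had none.

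No member was without a peak in all classes, but 5 of 54 had none at the ends or in the body, namely Cdh5, Itgb2, Itgb2l, Itgad and Itgax. Of all 21883 protein-coding genes, 5274 had none there, a larger share. Known sites of use are endothelium for Cdh5 and blood cells for Itgb2, Itgad and Itgax. Whether this bears on the absence of peaks was not tested, and the leukocyte subunits Itgae, Itgal, Itgam and Itgb7 had body peaks. Another 15 members had no gene-end peak but a body peak, so that 49 of 54 had a peak at an end or in the body. Over all protein-coding genes, 16609 of 21883 had a peak in either place, 14548 of them at an end. In total 37 of 54 members (68.5%) had a body peak, against 46.3% of all protein-coding genes, and the members were also longer, with a median of 69.2 kb against 17.2 kb. At 100 kb or more, a body peak was present in 3 of 6 cadherins under 200 kb, in 7 of 8 cadherins at or over it and in all 6 integrin subunits, 5 under 200 kb and 1 over. The share was 91.6% of the 2428 protein-coding genes of that length.

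**Figure D2:**
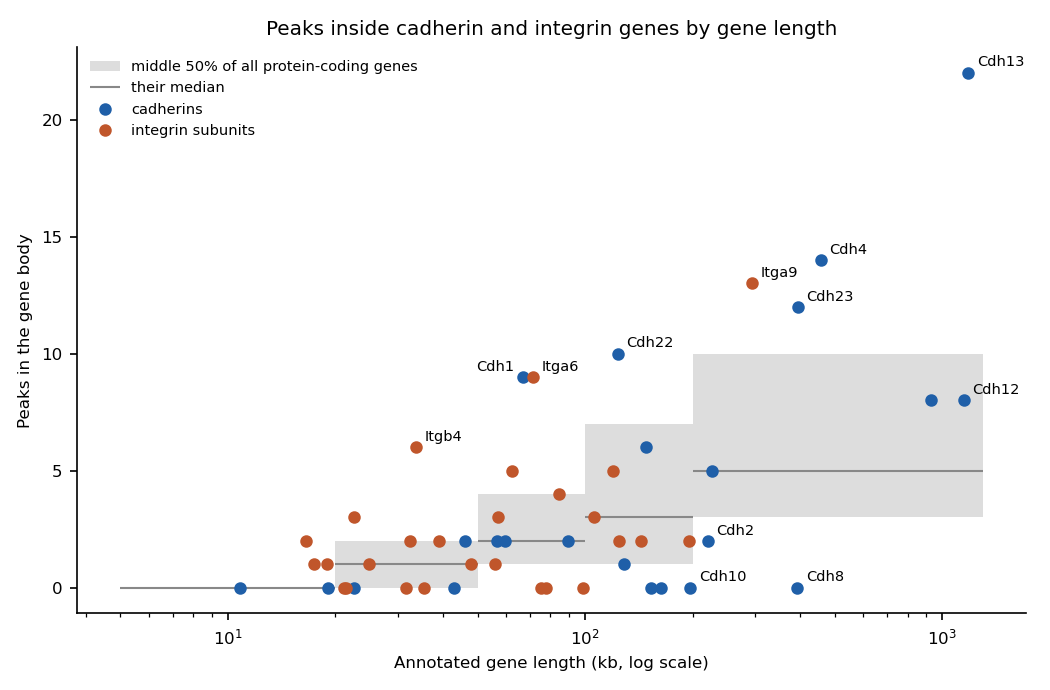
Number of peaks in the gene body (vertical axis) against annotated gene length in kb (horizontal axis, log scale) for 23 cadherins and 27 integrin subunits. Grey boxes and lines give the middle 50% and the median of all protein-coding genes in 5 length classes; Cdh1 and Itga6 had 9 peaks each and Itgb4 had 6, above the box of their length class, while Cdh8 had none in 393 kb.

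Pooled over the genes, cadherins had fewer body peaks per length than integrin subunits, but they were also longer. The order of integrin subunits against all protein-coding genes varied with length. Cadherins stood below all protein-coding genes in every length class but that of 50 to 100 kb. The median length of cadherins was 148 kb, against 55.9 kb for integrin subunits. Over all 23 cadherins there were 105 body peaks in 6.28 Mb, or 0.167 per 10 kb, against 0.305 per 10 kb over all protein-coding genes. Over the 27 integrin subunits there were 68 body peaks in 1.93 Mb, or 0.352 per 10 kb. At 200 kb or more the 8 cadherins had 0.143 per 10 kb, against 0.183 over all protein-coding genes, but a median of 8 body peaks per gene, against 5. This class has no upper limit of length. Beside the median of genes within 20% of their length, Cdh12 had 8 against 8, Cdh18 8 against 7.5 and Cdh20 5 against 5. Cdh4, Cdh13 and Cdh23 had more than that median, and Cdh2 and Cdh8 had fewer. At 50 to 100 kb, 4 cadherins had 0.549 per 10 kb and 8 integrin subunits 0.377, against 0.396. Among those 4 cadherins, Cdh1 had 9 body peaks, and Cdh17, Cdh19 and Cdh26 had 2 each. In the class of 100 to 200 kb, 6 cadherins had 0.186 and 5 integrin subunits 0.203, against 0.347 over all protein-coding genes. Under 20 kb, 2 cadherins had 0 and 3 integrin subunits 0.756, against 0.383. At 20 to 50 kb, 3 cadherins had 0.179 and 10 integrin subunits 0.484, against 0.430. The 1 integrin subunit of 200 kb or more had 0.442, against 0.183.

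Individual members departed from these values in both directions. Cdh13 had the most body peaks, 22 in 1185 kb. Their tallest, 96 (77.8 to 117), lay 254 kb from the lower-coordinate end. Of 44 genes outside these families within 20% of its length, 6.82% had as many or more. Cdh4 had 14, Itga9 13, Cdh23 12 and Cdh22 10. The tallest body peak of any member, 115 (94.9 to 138), was that of Itga9, 257 kb from its lower-coordinate end. By contrast, Cdh8 (393 kb), Cdh10 (197 kb), Cdh7 (163 kb) and Cdh11 (153 kb) had no body peak. The medians of genes within 20% of their lengths were 5 for Cdh8 and 4 for each of the other 3. For Cdh7, Cdh10 and Cdh11 the gene-end peaks were the only peaks within 50 kb.

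Among integrins, Itga6 had 9 body peaks in 71.5 kb, with pileups from 10 to 55, and the tallest lay 19.5 kb from the lower-coordinate end. As many or more were found in 3.60% of 1444 genes of like length. Itgb4 had 6 in 33.7 kb, the highest density of the members at 1.78 per 10 kb, and 1.26% of 2223 genes of like length had as many or more. Their products form the laminin receptor of hemidesmosomes. Body peaks were absent from Itga2, Itga4, Itgb2, Itgb2l, Itgb8, Itgad and Itgax. A body peak can also be another gene's end. The tallest in Itgae, 96, lay 47 bases from an end of Haspin, and the tallest in Cdh23, 49, lay 83 bases from an end of Vsir.

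Cadherin genes had fewer flank peaks than integrin genes in this library, a difference for which no test was made. A flank peak was present for 44 of 54 members (81.5%), against 89.3% of all protein-coding genes. The share was 14 of 23 cadherins (60.9%) and 26 of 27 integrin subunits (96.3%). Medians were 3 flank peaks per cadherin and 6 per integrin subunit, and 5 over all protein-coding genes. Cadherins had a median of 1 neighbouring protein-coding gene end within 50 kb, integrin subunits 2 and all protein-coding genes 4, and the part of neighbouring genes in this difference was not tested.

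The 9 cadherins without a flank peak were Cdh2, Cdh7, Cdh9, Cdh10, Cdh11, Cdh12, Cdh17, Cdh18 and Cdh19, and 8 of them had no neighbouring gene end in that range, Cdh17 being the exception. The 11 cadherins with no neighbouring gene end also included Cdh20, with 4 flank peaks, and Cdh6 and Cdh8, with 2 each. Among integrins, Itgb8 alone had no flank peak, and it too had no neighbouring gene end. Itga4 and Itgb1 had no such end either, but they had 4 flank peaks each. Itgb7 had the most, 19, with 8 neighbouring ends, although it had no peak at its own. Itgb2 had 16 with 5 neighbouring ends, and the tallest, 103, lay 111 bases from an end of Pttg1ip. Of the 185 flank peaks counted over integrin subunits, 57 lay at another gene's end, and of the 78 over cadherins, 17 did. Over all protein-coding genes it was 37495 of 120531, a share near that of the integrin subunits and above that of the cadherins.

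Cdh1 was then set against the other 22 cadherins. It ranked second of 23 by gene-end pileup, at 69, against a median of 23 over the others, with absent peaks entered as 0, and a highest value of 107 at Cdh16. By fold over local background it ranked 9th, at 8.21. It stood higher by the density of peaks inside it and by the count of peaks around it. With 9 body peaks in 66.9 kb it had 1.35 per 10 kb, the highest density of the 23 cadherins, against a median of 0.0885 and a maximum of 0.810 at Cdh22 over the others. By the count itself it ranked 5th, behind Cdh13, Cdh4, Cdh23 and Cdh22, which are all longer. Of 1511 genes outside these families within 20% of its length, 2.45% had as many or more, and their median was 2.

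**Figure D3:**
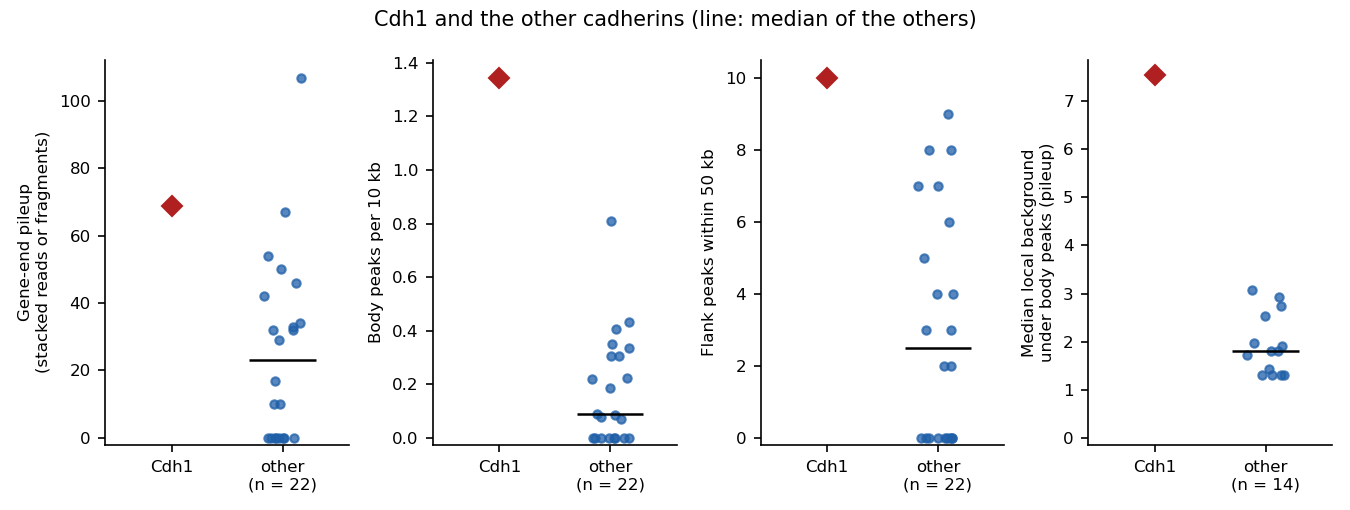
Cdh1 (diamond) and the other cadherins (points, line at their median) by gene-end pileup, body peaks per 10 kb, flank peaks within 50 kb and the median local background under body peaks, the last for the 14 others with a body peak. Cdh1 stood second in the first panel, at 69, and highest in the other panels, at 1.35, 10 and 7.55.

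Within the flanks Cdh1 had 10 peaks, the most of the 23 cadherins, against a median of 2.5 and a maximum of 9 over the others. With a radius of 100 kb it ranked 4th. Leaving out peaks at another gene's end, it had 8, as many as Cdh23. With body peaks added on the same terms, Cdh1 had 17 and ranked joint 3rd. The others had a median of 6 and a maximum of 24. Cdh1 had 2 neighbouring gene ends within 50 kb, against a median of 0.5 over the others. Its tallest flank peak, 88 (70.6 to 108), was also the highest of the cadherins by a narrow margin, since that of Cdh16 had 86. That peak of Cdh1 lay 13.1 kb outside the gene and 279 bases from an end of Tango6.

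The body peaks of Cdh1 lay in its lower-coordinate part. Their summits stood 5.94, 15.1, 16.4, 18.3, 29.4, 30.2, 34.2, 37.4 and 41.7 kb from the lower-coordinate end, with pileups of 26, 43, 88, 27, 66, 33, 23, 14 and 23 in that order. The tallest, 88 (70.6 to 108) at chr8:106619487-106620061, was taller than the gene-end peak, although the intervals of the pair overlapped. No peak was listed between the summit at 41.7 kb and the upper-coordinate end at 66.9 kb. Outside the gene, summits with pileups of 33 and 33 stood 3.63 and 16.2 kb below the lower-coordinate end, and a summit of 60 stood 42.1 kb below it. Above the upper-coordinate end the first was a peak of 51.

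**Figure D4:**
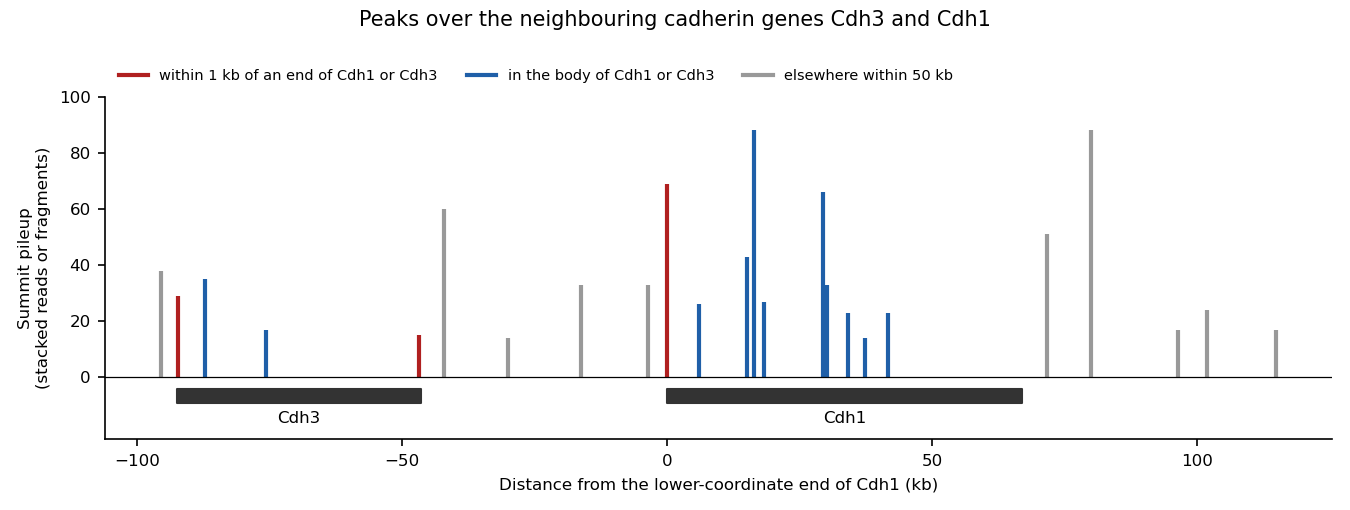
Summit pileup (vertical axis, stacked reads or fragments) by distance in kb from the lower-coordinate end of Cdh1 (horizontal axis) over Cdh3 and Cdh1, with gene spans as dark bars. Red lines are peaks within 1 kb of an end of either gene, blue lines body peaks and grey lines other peaks within 50 kb; 9 blue lines stand in Cdh1, up to 88, and 2 in Cdh3, up to 35.

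Cdh3 lies 46.4 kb below Cdh1 on the same chromosome. Cdh1 had a gene-end pileup of 69, 9 body peaks (1.35 per 10 kb) and 10 flank peaks, against 29, 2 (0.434 per 10 kb) and 6 for Cdh3. In other measures Cdh3 stood higher, with 1 gene-end peak at Cdh1 and 2 at Cdh3, and a highest body fold of 7.78 in Cdh1 and 8.42 in Cdh3. Part of their flanks is shared, since the gene-end peak of Cdh1 is the tallest flank peak of Cdh3.

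The local background, the level that the peak caller estimated around each peak, had a higher median under the body peaks of Cdh1 than under those of any other cadherin. Under its 9 body peaks it had a median of 7.55 and ranged from 3.23 to 10.95. The medians of the other 14 cadherins with a body peak ran from 1.30 to 3.07, with Cdh2 the highest, and the median over 31011 body peaks of all protein-coding genes was 1.94. Single body peaks of other cadherins lay inside the range of Cdh1, with values up to 6.02 in Cdh4 and 4.99 in Cdh13. At the gene-end peak of Cdh1 the background was 7.52, a value exceeded at those of Itga9 (8.56), Cdh16 (8.36) and Itga5 (7.91). A higher background lowers the fold of a peak of given height and raises the height needed to be listed. The source of this higher background was not tested, nor was the part that closely spaced peaks have in it. Among integrin subunits the highest such median was that of Itga6, 4.75.

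Among the 35 members with a listed start, CpG-rich promoters had a start peak more often than CpG-poor ones. A peak lay within 1 kb of a start at 24 of the 35 genes (68.6%), against 66.5% of 17491 protein-coding genes with a listed promoter. The 24 were 9 of 13 cadherins, 13 of 19 integrin subunits and 2 of 3 other matched genes. CpG content was taken as the observed count over that expected from the C and G content, over 39 promoters, since 3 genes have more than 1. At a ratio of 0.6 or more, 13 of 14 promoters had a start peak, and below it 13 of 25 did. Promoters of 1 gene can share a peak: the peak of 32 at Cdh7 counts for 3 promoters, with ratios of 0.647, 0.723 and 0.217. The median ratio was 0.569 in the 26 promoters with a peak and 0.303 in the 13 without, and over all protein-coding promoters it was 0.755 and 0.176.

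**Figure D5:**
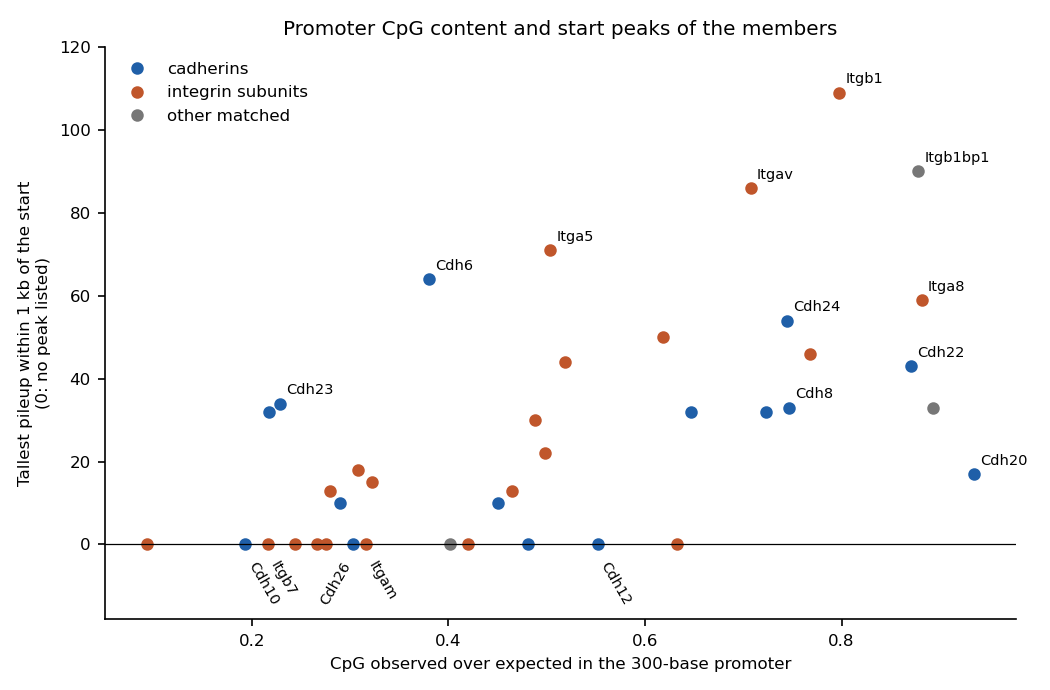
Tallest pileup within 1 kb of the start (vertical axis, 0 where no peak is listed) against the CpG observed over expected ratio of the 300-base promoter (horizontal axis) for the 39 promoters of 35 members, coloured by family. Itgb1 (0.798, 109) and Itgav (0.708, 86) stand high among CpG-rich promoters, and Cdh6 (0.380, 64) high at a low ratio.

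The share with a start peak rose with the ratio in members and over all promoters. From 0.6 to 0.8, 8 of 9 member promoters (88.9%) had a start peak, against 96.4% of all promoters. From 0.2 to 0.4, 7 of 13 (53.8%) had one, against 36.1%, and under 0.2 there were 0 of 2, against 11.3%. From 0.4 to 0.6 the shares were 60% of 10 and 77.7%. Pileups were lower in members at a like ratio: the median over promoters with a peak was 48 from 0.6 to 0.8, against 73 over all, and 43 at 0.8 or more, against 80.

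Some members departed from this order. Cdh20, with the highest ratio of the members at 0.935, had a start pileup of only 17, with its summit 908 bases after the start. Itgb6 has 2 listed starts, and the peak of 13 lay near the one of 0.280, with none at that of 0.633. Cdh6 and Cdh23 had peaks of 64 and 34 at ratios of 0.380 and 0.229. In 12 of the 24 genes the summit lay within 100 bases of a start, near the share of 49.3% over all promoters with a start peak. The median distance was 91 bases in the members and 103 bases over all promoters with a start peak. The members entered once per gene, at the start nearest to its summit, but the comparison values once per promoter, so the measures differ.

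Short motifs were searched on both strands of the same promoters, and none of the 4 strings contains another. Cdh1 is not among the 35 genes searched. The E-box CAGGTG, of the kind bound by Snail and Zeb repressors, was present in 9 of 39 member promoters (23.1%), against 19.7% of all 21262 promoters. These belong to Cdh7, Itga3, Itga9, Itga11, Itgb5, Itgb6 and Itgb8. The GC box GGGCGG was present in 15 (38.5%), among them Itgb1, Itgav, Itga5, Cdh24 and Itgam shown above, against 46.2%. The CCAAT box CCAAT was present in 12 (30.8%), against 38.2%, and the TATA box string TATAAA in 0, against 12.6%. A match describes these letters and is not evidence of binding.

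Genes that act with or on cadherins and integrins, taken from 4 lists, had a gene-end peak in nearly every case. A gene-end peak was found at all 9 catenins and adherens junction genes, and their median pileup was 64. The highest were vinculin (Vcl), a linker to actin, with 260, and plakoglobin (Jup) with 163, while beta-catenin (Ctnnb1) had 55. All 4 nectins, a separate class of junction receptor, had one, up to 263 at Nectin2. Of 14 integrin adaptors and kinases 13 had one, with a median of 41, led by Lims1 at 211 and talin 1 (Tln1) at 138, and only the kinase Src had none. All 9 factors of the epithelial-mesenchymal transition, which control Cdh1 in other settings, had one, at a median of 31, among them Snai1 at 98 and Snai2 at 80. Together 35 of 36 partner genes had a gene-end peak, against 34 of 54 members and 66.5% of all protein-coding genes, and no test of that difference was made.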

How the data were processed

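ATAC-seq peaks of 1 library, that of the untreated 0 h sample, were analysed, and groups were taken from the sample titles, since the treatment field gives 6 h for the samples titled 1 h and 24 h. Per the submitters' processing notes, the tools were MACS2 2.2.6, a peak caller, with deepTools 3.2.1 and SAMtools 1.9, the aligner Bowtie2 2.3.4.1 and bcl2fastq 2.20.0.422, and the genome build was mm10, also written GRCm38.p6. The total read count, read filters, duplicate removal and any Tn5 shift of reads were not given in the sources used here. Kept duplicates would raise pileups.

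The deposited list gives each peak's position, an integer score that was the authors' -log10 q times 10, rounded down, and the authors' fold enrichment, a ratio of summit pileup to local background. Further deposited columns hold -log10 q and -log10 p, and listed peaks went down to a -log10 q of 1.30, which equals a q of 0.05.

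The summit pileup and local background were solved from fold = (pileup + 1)/(background + 1) and the Poisson probability behind -log10 p. Whole pileups (tolerance 0.01) resulted for 77626 of 77629 peaks, and the 3 others were mitochondrial. Intervals cover counting error only, since PCR copies, where kept, count a molecule more than once. Genes came from the RefSeq table of GRCm38.p6, which gives no strand or exons, so lower-coordinate and upper-coordinate ends replace start and end except where the promoter table gives a start. An overlap of 1 bp counted, and a peak can count for several genes. Comparison genes of like length were within 20%.

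The members, lists, named genes and settings were chosen with earlier results of these data known. Named genes were 12 constant ones and, per group, the members with the highest gene-end pileup, the most body peaks or the most flank peaks and those without a gene-end peak. Further members were named after their values were seen. With 1 library no test was made. On simulated data, 5000 of 5000 pileups were recovered and 2000 of 2000 planted intervals were put in their intended class. The pileups were simulated with the same formula that was solved, so this cannot check whether the peak caller used it. Software was Python 3.11.15 with scipy 1.17.1, pandas 2.3.3, matplotlib 3.10.9 and numpy 2.4.6.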

Additional observations from a re-analysis of the deposited data

How the results depend on the processing

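Of 76 values computed under alternative settings for 11 results, 66 stayed within the limits set for them and 10 moved. These results are counts, medians and ranks, which have no direction, so a reversal could not be seen. The limits were wide. With windows of 2500 bp, 22 integrin subunits with a gene-end peak, against 17, stayed within them. So did a median of 4 flank peaks per integrin subunit with a pileup of at least 20, against 6. Flank counts moved most. The median for cadherins, 3, was 1 with a pileup of at least 20, 0 with a radius of 20 kb and 5 with 100 kb, and that for integrin subunits, 6, was 3 with 20 kb and 11 with 100 kb. Fewer or more peaks enter by the construction of these settings. Cdh1 ranked 4 by flank peaks at 100 kb, and the cause was not tested. With annotated starts alone, 9 cadherins had a peak, since only 13 have a listed start. With fold in place of pileup, the medians at gene ends were 8.76 for cadherins and 8.82 for integrin subunits, values in another unit, and Cdh1 ranked 9. Its rank of 1 by body peaks per 10 kb held in all 5 settings.

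The gene-end peak was lost at Cdh9 and Cdh15 with a -log10 q of at least 5, and also at Cdh20, Itga4 and Itga11 with a pileup of at least 20. It was lost at Cdh8 and Itgae with windows of 500 bp, at those 2 with Cdh20 and Itga9 when the summit had to lie in the window, and at Itgb3bp when peaks shared with another gene were left out, a setting chosen after seeing the data. Windows of 2500 bp added 8 members, among them Itgav, Cdh5, Itgb2 and Itgb7. No paired analysis was possible because each group has 1 sample. Gene-end peaks could not be assigned to starts for the 19 members without a listed start. Depth limits detection to pileups of 6 or more where only the genome-wide background applies, and a higher local background raises that limit.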

Other observations

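Several cadherin and integrin genes share a chromosome. Chromosome 8 holds 8 cadherins (Cdh8, Cdh11, Cdh5, Cdh16, Cdh3, Cdh1, Cdh13 and Cdh15) within 23.8 Mb, of which 6 had a gene-end peak, and 43 flank peaks were counted around them. Chromosome 15 holds 5 cadherins (Cdh6, Cdh9, Cdh10, Cdh12 and Cdh18) within 10.4 Mb, of which 2 had a gene-end peak, Cdh9 and Cdh10, and only 2 flank peaks were counted, both around Cdh6, whose start peak of 64 was counted in its body. Over all protein-coding genes, 75.1% on chromosome 8 and 75.4% on chromosome 15 had a gene-end peak, so the 6 of 8 on chromosome 8 are near that share. On chromosome 7, Itgal, Itgam, Itgax and Itgad, which encode leukocyte alpha subunits, lie within 0.909 Mb, and 0 of these 4 genes had a gene-end peak, against 56.5% of 2030 protein-coding genes there. On chromosome 11, 4 of 5 integrin subunits, spread over 42.9 Mb, had one, Itga2b being the exception, near the 73.3% of 1609 protein-coding genes there. These groupings were made after the values were seen, and no test of them was made.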
